A study of Mus musculus with 2 samples.

Results

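Expression of 9 genes that mark or drive the skeletal muscle lineage of the limb was examined in organoids of mouse limb mesenchyme, on their distal and their proximal side. They were taken by symbol from the authors' deposited table of distal against proximal, which lists 13916 protein-coding genes, and all 9 were listed there. The set holds Pax3, Pax7, Lbx1, Met and Six4 of the muscle precursors, the myogenic factors Myf5, Myod1 and Myog, and the fusion gene Mymk.

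The organoids were made from embryonic limb mesenchymal cells of Slc:ICR mice and were kept for 48 h in a medium with Fgf8b and Wnt3a, an agent pair shared by both groups. The 5 organoids, which came from 4 cultures, were collected on day 2. Photo-isolation chemistry was then run on sections of 10 µm: reverse transcription takes place in the section with light-caged primers, and ultraviolet light (365 nm, 3 min) releases the cDNA of the area that is lit. Each side gave 5 barcoded regions that were pooled into 1 library, so the distal and proximal sides and the 2 libraries are the same split and cannot be told apart, and the labels do not tie a region to an organoid or culture. With 5 regions a side and 4 cultures, some regions of each side share a culture, so the regions are not independent. P-values over regions may be too small and cannot be taken at face value. A match of the 2 sides by organoid or culture, if there is one, was ignored.

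In the embryo, limb skeletal muscle does not arise from limb mesenchyme. Precursors leave the somite, keep Pax3 and Lbx1, and need the receptor Met, whose ligand Hgf is made by the limb mesenchyme, to move into the bud. There they switch on the basic helix-loop-helix factors Myf5 and Myod1, which commit cells to muscle, and then Myog, which drives differentiation. The homeobox factor Six4 acts upstream of these factors, and Mymk encodes a membrane protein that is needed for myoblasts to fuse.

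The authors' table holds 1 mean per gene and no value per region, but the counts behind it could be read back. A gene with 1 count in 1 region repeats a fixed mean, which gave the size factor (relative depth) of each of the 10 regions. The regions of a side are numbered here from 1, the deepest, to 5, the shallowest, and these numbers are not the barcode numbers of the labels. Size factors ran from 1.502 to 2.42 in proximal regions and from 0.329 to 0.832 in distal regions, or about 214774 to 345649 and 46991 to 118978 counts over the listed genes. Distal regions held 23.3% of the summed depth, so 3 counts correspond to a normalized level (counts divided by size factor) of 1.02 in distal and 0.311 in proximal. All 8 markers of limb mesenchyme were listed, with Prrx1 at a mean of 159 normalized counts and Twist1 at 74.0 in the authors' deposited table. There, 4 of the 8 were called, 2 in each direction, beside 0.977% of all genes in either direction.

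Counts of the muscle genes other than Six4 lay almost wholly in proximal regions. Pax3, Pax7, Lbx1, Met and Myf5 had 0 counts in the 5 distal regions, Myod1 and Myog had 1 distal count each, and Mymk had 2. Having no distal count was common at this depth: of 9493 genes with counts read back, 2292 had counts only in proximal regions. The 2292 include genes with a single count, so they are no matched background for genes with more proximal counts. In proximal, the same 8 genes had 225 counts together. The 4 distal counts were 1.75% of all 229 (exact Clopper-Pearson 95% interval 0.478 to 4.41%), where the distal share of depth is 23.3%. Six4 was left out of this sum with its values known, and the interval treats counts of different genes and regions as independent. With Six4 included, the 5 precursor genes had 13.5% of their counts in distal (9.04 to 19.2%). The 4 myogenic and fusion genes had 2.07% (0.568 to 5.22%). Six4 was found on both sides, with 26 distal and 130 proximal counts. Intervals and floors cover counting error only, and fewer muscle cells cannot be told apart from less RNA per cell in regions that hold many cells.

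**Figure D1:**
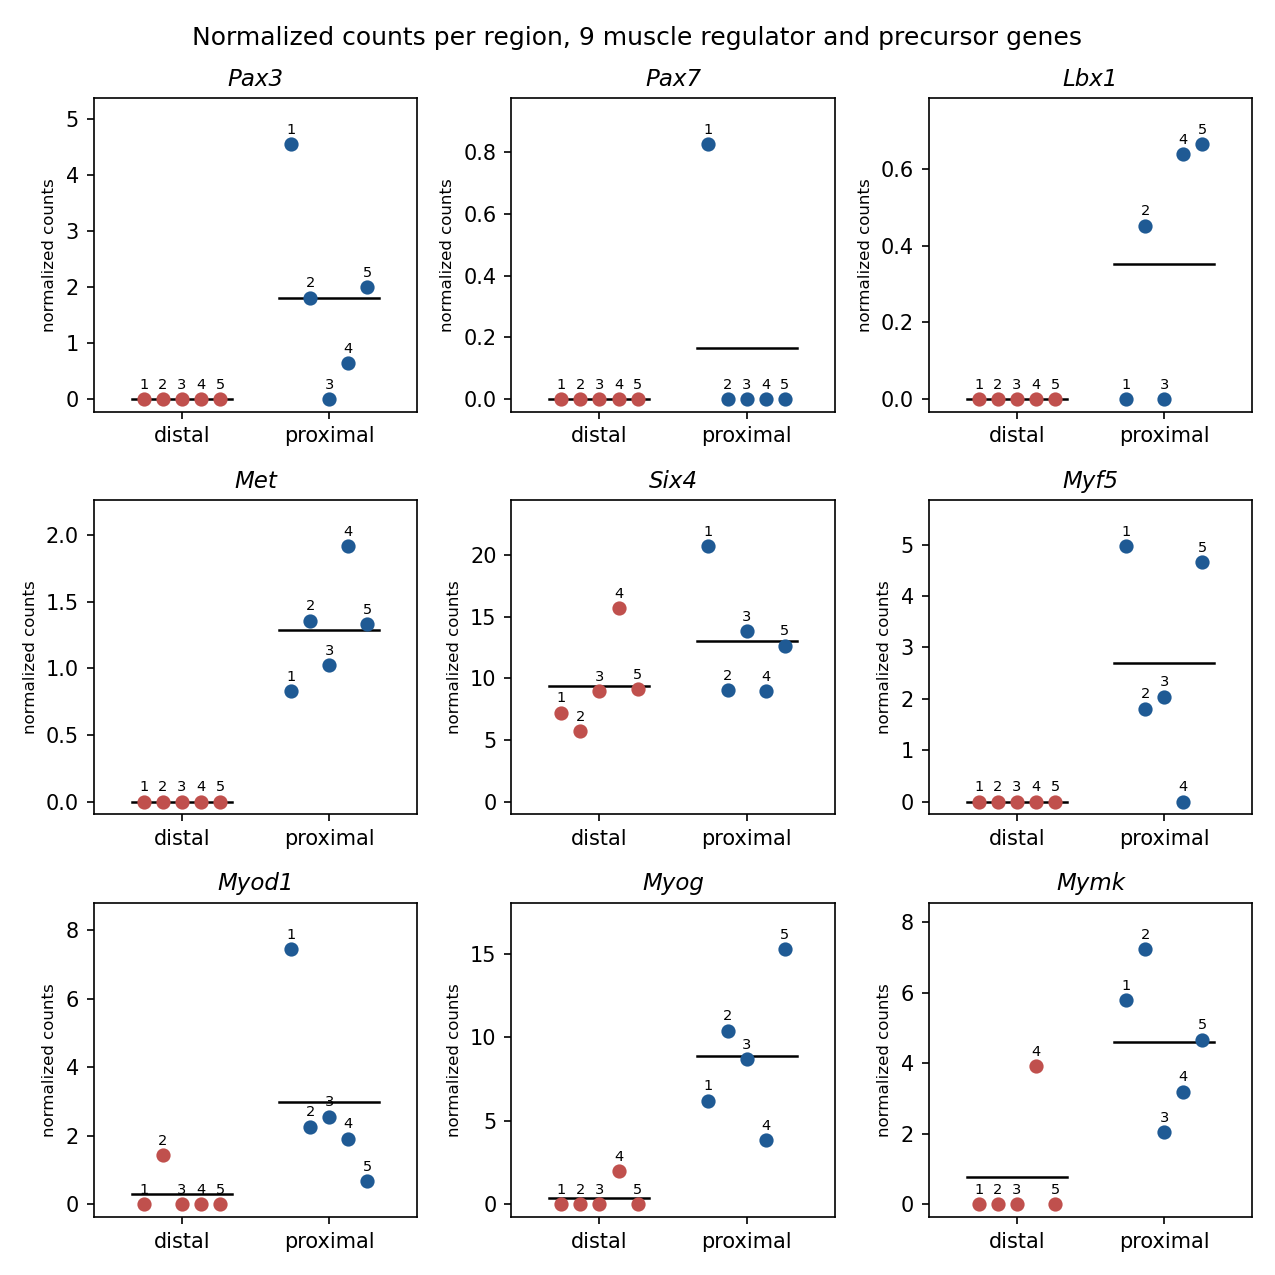
Normalized counts (vertical axis, each panel with its own scale) of the 9 genes by region, 5 distal and 5 proximal; each point is 1 region with its number by depth, and bars are means. Met and Myog have every proximal region above every distal region, Six4 overlaps between the sides, and Pax3, Pax7, Lbx1, Met and Myf5 are at 0 in distal.

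By the authors' deposited table, 1 of the 9 genes passed an adjusted p of 0.05 (DESeq2's Wald test, per the file headers): Myog, which was lower in distal. There, 0.977% of all genes were called in either direction and 0.582% as higher in proximal. Without adjustment, 4 of the 9 had a p under 0.05 and a negative log2 change, against 3.51% of all genes. The median log2 change of the 9 in the authors' deposited table was -2.47, with 8 of 9 negative, beside 0.07 and 45.5% negative over all genes. Every proximal region stood above every distal region for 2 of the 9, Met and Myog, against 2.73% of the 9493 genes with counts read back.

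Pax3, a paired-box factor that keeps migrating precursors undifferentiated, had 11, 4, 0, 1 and 3 counts in proximal regions 1 to 5. Per size factor these are 4.55, 1.81, 0, 0.638 and 2.00 normalized counts. Region 1 held 57.9% of its 19 counts (95% interval 33.5 to 79.7%) at 25.0% of the proximal depth, and proximal region 3 had none, as had all distal regions. With distal set at 3 counts and the proximal counts taken as exact, Pax3 was 1.92-fold lower there. This fell to 1.08-fold without proximal region 1. The authors' deposited table lists Pax3 at -2.47 ± 1.46 (log2 change ± SE), with 0.991 as the adjusted p.

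Pax7, the paralog of Pax3 that marks later, resident precursors, had 2 counts, both in proximal region 1. Lbx1, a homeobox factor of precursors that migrate into the limb, had 1 count each in proximal regions 2, 4 and 5. Both sides stood at 3 counts or fewer for these genes, so no difference was detectable at this depth and no fold is given. Pax7 stands at 0.63 on the log2 scale in the authors' deposited table, although no distal region had a count. The same held for all 148 genes whose counts were 2 in a single proximal region, all above 0 on the log2 scale of the authors' deposited table, so the sign carries no direction for such genes.

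Met, the receptor tyrosine kinase for Hgf, was low and even. Its counts were 2, 3, 2, 3 and 2 in proximal regions 1 to 5, or 0.827 to 1.91 normalized counts with a median of 1.33, and 0 in each distal region. The groups did not overlap. With distal set at 3 counts and the proximal counts taken as exact, Met was 1.21-fold lower in distal, which is not a lower bound. Sharing its 12 counts by depth would place 2.79 in distal, so the interval of its distal share, 0 to 26.5%, holds the depth share. Met stands at -1.95 ± 1.29 (log2 change ± SE) in the authors' deposited table, where its adjusted p is 0.991.

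Six4 had counts in every region of both sides. It encodes a homeobox factor that acts upstream of the myogenic factors and is also active outside muscle. In distal regions 1 to 5 its counts were 6, 4, 5, 8 and 3, or 7.21, 5.73, 8.95, 15.7 and 9.13 normalized counts. Proximal regions 1 to 5 had 50, 20, 27, 14 and 19 counts, or 20.7, 9.05, 13.8, 8.94 and 12.6 normalized counts. The sides overlapped, with the highest distal region above all proximal regions but region 1. Six4 was 1.52-fold higher in proximal (95% counting interval 0.990 to 2.41), and the authors' deposited table has -0.54 ± 0.42 (log2 change ± SE; adjusted p = 0.991). The distal share of its counts, 16.7% (11.2 to 23.5%), included the depth share, so no difference was detected.

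Myf5 and Myod1, the determination factors, followed the proximal pattern with more counts. Myf5 had 12, 4, 4, 0 and 7 counts in proximal regions 1 to 5, or 4.96, 1.81, 2.04, 0 and 4.66 normalized counts, and 0 in every distal region. With distal set at 3 counts and the proximal counts taken as exact, it was 2.73-fold lower in distal. Depth alone would have placed 6.28 of its 27 counts there. For Myf5 the authors' deposited table has -3.04 ± 1.30 (log2 change ± SE; p = 0.0196, adjusted p = 0.586). Proximal region 4 had no count either, so the lowest proximal region met the distal ones.

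Myod1 had 18, 5, 5, 3 and 1 counts in proximal regions 1 to 5, or 7.45, 2.26, 2.56, 1.91 and 0.666 normalized counts. In distal, region 2 had 1 count, a level of 1.43, above the lowest proximal region. Myod1 was 9.71-fold higher in proximal, with a counting interval of 1.62 to 395 that rests on a single distal count. Its log2 change (± SE) stands at -2.63 ± 1.19 in the authors' deposited table (p = 0.0266, adjusted p = 0.687). Region 1 alone held 56.2% of the proximal counts (37.7 to 73.6%); without it, 14 proximal counts were left against 1 in distal. Leaving out distal region 2 moved the log2 ratio of mean normalized counts (pseudocount 0.5) from -2.14 to -2.79.

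Myog, the differentiation factor, had the most counts of the set after Six4. Proximal regions 1 to 5 had 15, 23, 17, 6 and 23 counts, or 6.20, 10.4, 8.69, 3.83 and 15.3 normalized counts. Its single distal count lay in region 4, a level of 1.96, below the lowest proximal region. Depth alone would have placed 19.8 of its 85 counts in distal. Myog was 25.5-fold higher in proximal, with a counting interval of 4.45 to 1018. In log2 units the authors' deposited table lists Myog at -4.17 ± 1.02 (SE; p = 4.09e-05, adjusted p = 0.00688). Without distal region 4 the log2 ratio of mean normalized counts (pseudocount 0.5) moved from -3.40 to -4.23. The same negative binomial fit was repeated on the counts read back with each region left out, its dispersions held, and adjusted over the genes read back. With all regions this gave Myog an adjusted p of 0.0388 over 9493 genes. Leaving out 1 region gave log2 changes of -4.78 to -3.88, unadjusted p from 2.11e-05 to 0.000552 and adjusted p from 0.0304 to 0.356. The call held without proximal region 1, 3 or 4 or distal region 4. It was lost without proximal region 2 (adjusted p 0.0815) or 5 (0.0926), and without distal region 1 (0.356), 2 (0.291), 3 (0.239) or 5 (0.160).

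Mymk, which is switched on in myoblasts about to fuse, had 14, 16, 4, 5 and 7 counts in proximal regions 1 to 5, or 5.79, 7.24, 2.04, 3.19 and 4.66 normalized counts. Both distal counts lay in region 4, the region that also held the Myog count, at a level of 3.92, above proximal regions 3 and 4. Mymk was 6.98-fold higher in proximal (counting interval 1.82 to 59.3). The values for Mymk in the authors' deposited table are -2.66 ± 1.04 (log2 change ± SE; p = 0.0107, adjusted p = 0.420). Without distal region 4, Mymk had 0 distal counts, and its log2 ratio of mean normalized counts (pseudocount 0.5) moved from -1.99 to -3.35.

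**Figure D2:**
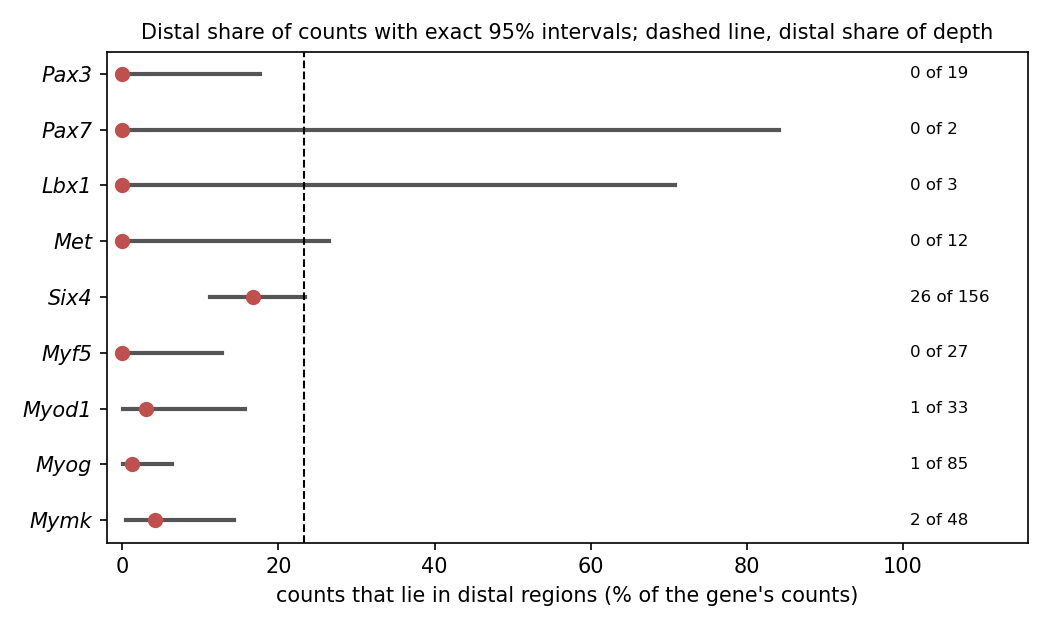
Share of each gene's counts that lie in distal regions (horizontal axis, %), with exact 95% intervals as bars and the counts at the right; the dashed line is the distal share of depth, 23.3%. The intervals of Pax3, Myf5, Myod1, Myog and Mymk end below the line, and those of Pax7, Lbx1, Met and Six4 reach it.

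An exact two-sided permutation test over the 10 regions, on normalized counts, gave Met and Myog 0.00794, the smallest p that 5 against 5 regions allow. It gave 0.0159 for Myod1, 0.0238 for Mymk and 0.0476 for both Pax3 and Myf5. Six4, Lbx1 and Pax7 had 0.246, 0.167 and 1.0 in the same exact test. Since some regions share a culture and any match between the sides was ignored, these p-values over regions may be too small and are not exact. Adjusted over the 9493 genes with counts read back, the smallest value was 0.271, so this test called none of them. Genes without counts read back were not tested this way.

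For genes with no distal count, the deposited log2 change varied with the proximal counts. Counts were read back through a 2-group negative binomial fit in which no fitted mean may go below 0.5. The largest difference from the deposited log2 change was 4.86e-07. A count set was kept only if it agreed within 1e-06, so this closeness was set in advance and is no test of the fit. Lbx1, Met, Pax3 and Myf5 have 3, 12, 19 and 27 counts, and the authors' deposited table has them at log2 changes of -0.05, -1.95, -2.47 and -3.04. These fitted changes are no lower bounds, and the folds at 3 distal counts given above are smaller.

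**Figure D3:**
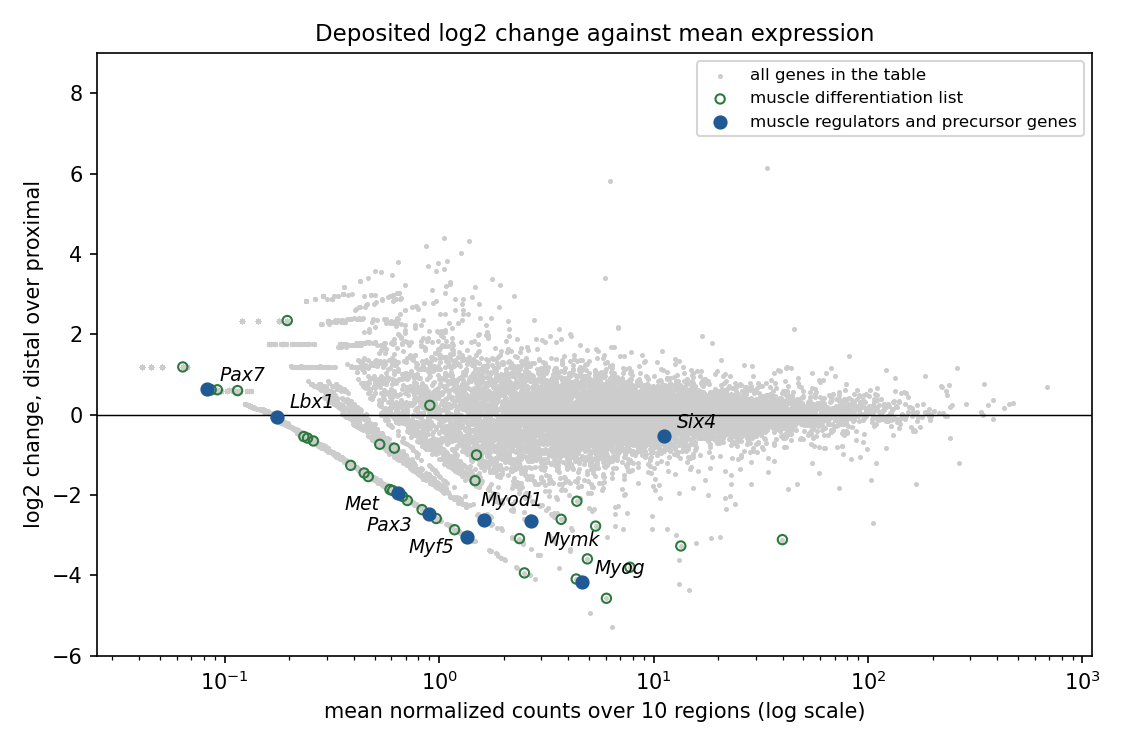
Log2 change of distal over proximal (vertical axis) against the mean of normalized counts over 10 regions (horizontal axis, log scale) for all 13916 genes of the authors' table (grey), the muscle differentiation list (open circles) and the 9 muscle genes (filled, named). Lbx1, Met, Pax3 and Myf5 lie on the lower edge formed by genes with 0 distal counts, and Six4 lies at -0.54.

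Within the proximal side, region 1 held more than its share of depth for some genes and not for others. Pax3, Myf5 and Myod1 together had 41 of 78 proximal counts in region 1, or 52.6% (95% interval 40.9 to 64.0%), at 25.0% of the depth. For Myog and Mymk this was 29 of 130, or 22.3% (15.5 to 30.4%), an interval that holds the depth share. These groupings were chosen after the values were seen, and the difference between them was not tested. Region 5, the shallowest, had the highest level of Myog and the lowest of Myod1 among proximal regions, while region 4 had the lowest of Myog and none of Myf5. Six4 also had its highest level in region 1, with 38.5% of its proximal counts.

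**Figure D4:**
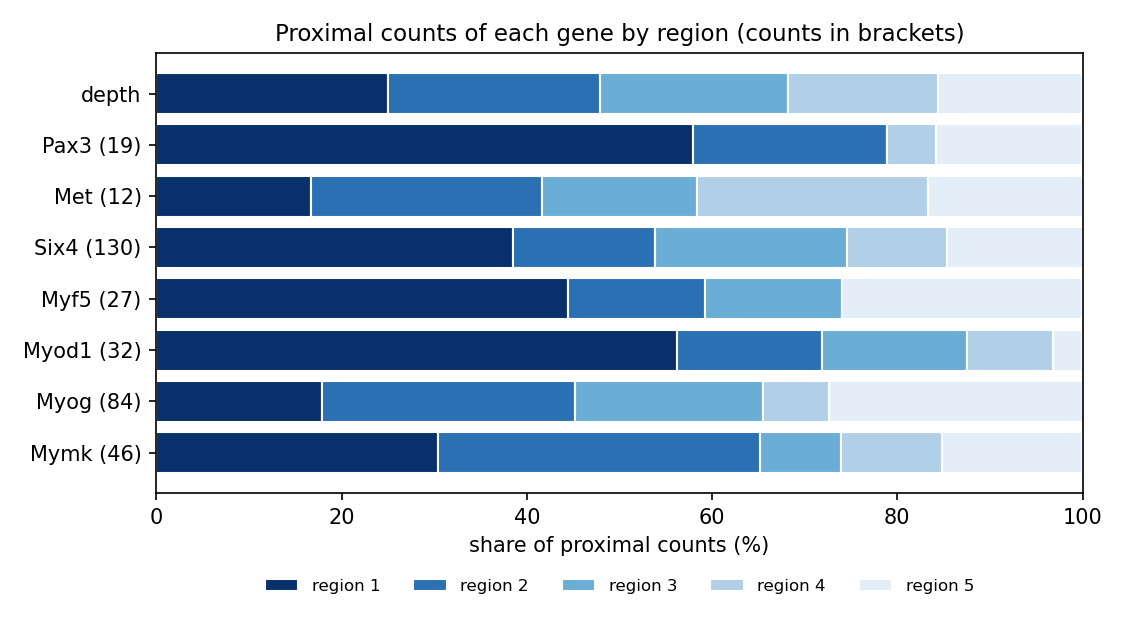
Share of proximal counts (horizontal axis, %) in each of the 5 proximal regions for 7 genes with at least 12 proximal counts (numbers in brackets), with the share of depth in the top bar. Region 1 holds 57.9% of the Pax3 counts and 17.9% of those of Myog.

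Levels between genes were compared per kilobase of annotated exon in proximal regions, a scale that assumes counts grow with length, which the sources used here do not state. Mean levels per kilobase (± SD over 5 regions) were 5.95 ± 2.92 for Myog, 3.03 ± 1.36 for Mymk, 1.59 ± 1.40 for Myod1, 1.29 ± 1.004 for Myf5 and 1.2 ± 0.442 for Six4. They were 0.291 ± 0.282 for Pax3, 0.168 ± 0.0538 for Met, 0.141 ± 0.133 for Lbx1 and 0.0282 ± 0.0631 for Pax7. Ranges over regions overlapped between all neighbours in this order except Six4 and Pax3. The order depends on dividing by length. Undivided, the highest mean normalized counts in proximal regions were 13.02 for Six4, 8.888 for Myog and 4.585 for Mymk.

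The genes lie at separate loci, and by GENCODE M21 (GRCm38) no annotated gene overlaps any of them. Myog is at chr1:134289989-134292548 on the plus strand, Pax3 at chr1:78101267-78197134 (minus), Mymk at chr2:27061636-27072179 (minus), Pax7 at chr4:139737062-139833528 (minus) and Met at chr6:17463800-17573980 (plus). Myod1 is at chr7:46376474-46379099 (plus), Myf5 at chr10:107482908-107486134 (minus), Six4 at chr12:73099609-73113456 (minus) and Lbx1 at chr19:45232684-45235812 (minus). No transcript of another gene matched the last 300 bases of theirs at 90% identity along 200 bases or more.

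Promoter sequences from RefSeq (GRCm38.p6, 250 bases before to 50 after a start site) matched 5 of the 9 genes, Pax7, Met, Six4, Myf5 and Myog. They were searched on both strands for the E-box CANNTG, which reads the same on both strands and is bound by myogenic bHLH factors, and for the MEF3 element TCAGGTTTC, which is bound by Six4. The MEF3 letters occurred in Myog and in 1 of 2 Six4 promoters, and in 0.421% of 32544 promoters. An E-box stood in 72.3% of all promoters. The promoters with a MEF3 match are shown 5′ to 3′ on the gene's strand, since they belong to the called gene and to Six4; capitals mark the E-boxes and MEF3 letters.
Myog (chr1:134289754-134290053, plus strand): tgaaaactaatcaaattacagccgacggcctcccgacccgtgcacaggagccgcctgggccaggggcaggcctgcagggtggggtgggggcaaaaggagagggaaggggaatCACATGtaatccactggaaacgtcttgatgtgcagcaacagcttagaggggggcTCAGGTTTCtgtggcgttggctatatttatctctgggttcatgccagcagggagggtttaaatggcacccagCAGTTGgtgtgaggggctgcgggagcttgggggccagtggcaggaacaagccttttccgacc
Six4 (chr12:73113196-73113495, minus strand): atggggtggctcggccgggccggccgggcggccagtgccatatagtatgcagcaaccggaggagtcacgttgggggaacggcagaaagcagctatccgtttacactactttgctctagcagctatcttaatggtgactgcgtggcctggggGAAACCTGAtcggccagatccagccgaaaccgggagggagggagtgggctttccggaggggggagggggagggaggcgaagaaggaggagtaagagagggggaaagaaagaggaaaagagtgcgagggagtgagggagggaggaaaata
In Myog the MEF3 letters lie at positions -84 to -76 from the start site (-1 is the base before it), with E-boxes at positions -138 to -133 and -12 to -7. In Six4 the MEF3 letters lie on the reverse strand, at -99 to -91. Met had 2 E-boxes and no MEF3 match, and Pax7 and Myf5 had neither. These are matches of letters, not measured sites.

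Partners of the precursors were described from a list of 22 genes. None was called in either direction in the authors' deposited table, where 0.977% of all genes were called. Of the 22, 6 had an unadjusted Wald p under 0.05 with a lower level in distal, against 3.51% of all genes. The list's median log2 change was -0.32, or -0.94 over the 11 genes with a mean of 1 or more. The share of 0.977% is also the one to set beside the calls of the lists below. The highest means in the authors' deposited table belonged to Epha4, Efna5 and Ackr3, which stand at -0.08, -0.89 and -0.06 in log2 units. Hgf, the ligand of Met, had 4 counts, all proximal, and was not called.

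Among cofactors of the myogenic factors, 14 of 16 were listed and 1 was called, Mef2c, which encodes a MADS-box factor that acts with Myog in muscle and also in other lineages. Mef2c was higher in distal, at 0.96 ± 0.19 (log2 change ± SE; adjusted p = 8.02e-05) by the authors' deposited table. The bHLH partners Tcf3, Tcf12 and Tcf4 had high means (81.0, 84.2 and 364.5) and stand at 0.00, -0.32 and 0.25 (log2 units) in the authors' deposited table, none called. The list's median was -0.20.

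Inhibitors of myogenic bHLH factors had a median mean of 24.9 normalized counts in the authors' deposited table, beside 3.40 over all genes. Of 14 listed, 1 was called, Id3, which encodes a protein that binds E proteins and keeps them from DNA. By the authors' deposited table Id3 was higher in distal, at 0.44 ± 0.12 (log2 change ± SE; adjusted p = 0.0345). This call was lost at a threshold of 0.01 and on centring on the median of all genes. Id2 and Twist1 stand at -0.54 and -0.09 in the authors' deposited table without a call, and the list's median was -0.03.

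Of 13 fusion and surface genes 10 were listed, and Ncam1, a neural and muscle adhesion molecule, was called as lower in distal (log2 change -0.78, adjusted p 0.00640 in the authors' deposited table). Mymx, the partner of Mymk in fusion, had 0 distal and 25 proximal counts and was not called. Jam3 and Cdh2, next by mean, stand at -0.13 and 0.42 (log2 units) in the authors' deposited table.

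Of 42 differentiation genes 35 were listed, and 6 were called, all lower in distal: Actc1, Acta1, Myl1, Myh3, Tnnt1 and Tpm2, which encode parts of the contractile apparatus. The authors' deposited table has these at log2 changes of -3.11, -3.59, -4.57, -3.27, -4.09 and -3.80. Actc1, Myh3 and Tpm2 had the highest means of the list there, 39.9, 13.4 and 7.76. Over all genes, 0.582% were called as higher in proximal. The list's median was -1.89, and -3.10 over its 14 genes with a mean of 1 or more; for the 9 regulators and precursor genes these medians were -2.47 and, over 5 genes, -2.66. The 33 list members with counts read back had 31 distal and 983 proximal counts, a distal share of 3.06% (2.09 to 4.31%). Summed normalized counts of these 33 ran from 2.40 to 17.6 in distal regions and from 67.6 to 154 in proximal regions.

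Distal counts of muscle genes lay mostly in regions 2 and 4. Over 41 genes, the 8 members other than Six4 and the differentiation genes read back, distal regions had 35 counts. Region 2 held 13 of them and region 4 held 12, or 37.1% and 34.3%, at 23.9% and 17.4% of the distal depth. Region 4 had counts of 10 of the 41 genes, Myog, Mymk, Myl1 and Acta1 among them, and region 2 of 7, with 5 counts of Ttn and the Myod1 count. Regions 1 and 5 had 2 each. This was looked at after the values were seen.

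Genes of the connective tissue that patterns limb muscle moved in both directions. Of 10, 3 were called lower in distal in the authors' deposited table, Osr2 (log2 change -2.85), Tbx5 (-1.41) and Pdgfra (-0.86), and Tcf7l2 was called higher (0.69).

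Markers of other cell types that could carry these genes were given the same way, and their part in the result was not tested. Of 6 neural crest and Schwann markers, a lineage that also uses Pax3 and Pax7, 5 were listed and none was called. Their summed normalized counts ran from 1.79 to 6.09 in distal and from 1.91 to 7.16 in proximal regions, and Sox10 had 0 distal and 9 proximal counts. Of 6 cardiac markers 2 were listed, Tbx20 and Nppa, with 2 counts each, all proximal. Of 6 smooth muscle markers 5 were listed and Acta2, also made by young skeletal muscle, was called lower in distal (log2 change -4.22, adjusted p 1.78e-05 in the authors' deposited table). The other 4 summed to 3.04 to 7.21 in distal and 4.09 to 8.65 in proximal regions. Endothelial markers (5 of 8 listed) had 7 distal and 10 proximal counts, surface ectoderm markers (4 of 7) had 2 and 9, and of the blood markers Ptprc alone was listed, with 1 and 10.

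Patterns like that of the 9 genes were ranked over the 10 regions, by Pearson's r with their summed normalized counts on the scale log2(value + 0.5), among 5176 other genes with counts read back and a mean of at least 1. The 10 highest were Pcdh10, Myl1, Nprl3, Ppt2, Atf5, Fam217b, Tmem132c, Pcdh17, Cyp1b1 and Cdkn3, with r from 0.899 to 0.947. The points share 2 libraries and a gap in depth, and many of these genes have few distal counts, so no p is given. Of these, Myl1 and Cyp1b1 were called in the authors' deposited table. Without Six4, which has the most counts of the set, the 10 highest were Mylpf, Myl1, Pcdh10, Rbm24, Atf5, Parm1, Tpm2, Nprl3, Fam217b and Trim2, with r from 0.913 to 0.965. Of these 10, Mylpf, Myl1 and Tpm2 are on the differentiation list and Rbm24 is on the cofactor list.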

How the data were processed

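The deposited file is a comparison made by the authors, 5 distal against 5 proximal regions, with the columns of a DESeq2 results table per the file headers. Its mean is a signal, deposited by the authors as normalized counts averaged over all regions. The log2 change with its error comes from the authors' fit, the statistic is a score that the authors deposited as their quotient, and the p-value and adjusted p-value are as the authors deposited them. The builds mm10 and GRCm38 are named per the submitters' processing notes; the aligner and the counting are not given in the sources used here. The only count tests of distal against proximal run here were the exact permutation test and the refits with regions left out, both on the counts read back.

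Region counts were computed here. Steps shared by at least 20 genes gave 10 size factors. All whole-count sets that add up to a deposited mean were listed, and a set was kept if a negative binomial fit gave the deposited log2 change within 1e-06 at the deposited standard error. For 9492 of 9496 genes whose mean was 8 or less, exactly 1 set was left. Six4, with a higher mean, was searched with a tolerance of 5e-09, which left 1 of 1976678 sets, where 0.00695 would fall within it by accident, scaled from those within 1e-04. On simulated data of 1973 genes, 100.0% of count sets were recovered. These were modelled on genes with lower means than Myog and Six4 and higher means than Pax7 and Lbx1. Their values were made with the same fit, so this tested the search and not the fit. In the same simulation the permutation test passed an unadjusted 0.05 for 52.6% of 194 genes with an 8-fold drop in distal and for 4.78% of unchanged genes. The simulation drew regions as independent, while some real regions share a culture. Its dispersions were capped below those fitted for Pax3, Lbx1 and Pax7. These rates therefore do not give the error rate or power in the real data.

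Genes and lists were chosen with earlier results of these data known. Named are the 9 genes, called genes of the other lists, the 3 highest means of each list other than the marker lists, and the 10 genes most alike over regions. Hgf, Mymx, Ttn, the named markers and the genes named without Six4 were chosen after their values were seen. Numpy 2.4.6, scipy 1.17.1, numba 0.67.0 and BLAST 2.17.0 were used.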

Additional observations from a re-analysis of the deposited data

Results flagged for a closer look

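Each gene was searched on each side for a region whose gap to its neighbour exceeded Dixon's 95% critical value of 0.71 for 5 regions, which chance exceeds in about 1 of 20 groups. Of 18 groups, 5 had such a region. In proximal, region 1 stood apart for Myod1, at 7.45 normalized counts with a gap of 0.721 of the range, and for Pax7, at 0.827, where it held the only counts. In distal, a single region held all counts of Myod1 (1.43), Myog (1.96) and Mymk (3.92), so the gap was the whole range. With 1 or 2 counts in a side, this ratio says only that the counts were in 1 region.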

How the results depend on the processing

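Myog was called alone under thresholds of 0.01 and 0.1, on adjusting over the genes of the table or over those whose mean was 1 or more, and on centring on the median of all genes. Over genes whose mean was 10 or more, 0 of the 9 were called by the authors' Wald test, since Six4 (unadjusted p 0.194) alone was left. The exact permutation test over regions did not call Myog (difference of means -8.50 normalized counts, adjusted p 0.271) and gave Pax7 the opposite sign (-0.165). Inhibitor calls fell from 1 to 0 at 0.01 and on centring, and differentiation calls from 6 to 2 over genes whose mean was 10 or more, where fewer genes were tested. Of 36 list counts under an alternative, 33 stayed within 1.5 times. Many of these had little room to move: the partner list stayed at 0 and the cofactor and fusion lists at 1 throughout.

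The log2 ratio of mean normalized counts was -2.20 for Pax3, -0.41 for Pax7, -0.77 for Lbx1, -1.84 for Met, -0.46 for Six4, -2.68 for Myf5, -2.14 for Myod1, -3.40 for Myog and -1.99 for Mymk. A pseudocount of 0.1 moved it to -4.25 for Pax3, -1.41 for Pax7, -2.17 for Lbx1, -3.80 for Met, -4.81 for Myf5, -4.19 for Myog and -2.99 for Myod1. A pseudocount of 1 moved Pax3 to -1.48, Met to -1.20 and Myf5 to -1.89. Leaving out each region in turn gave -2.46 to -1.69 for Pax3, -0.50 to 0.00 for Pax7, -0.91 to -0.63 for Lbx1, -1.93 to -1.71 for Met, -0.71 to -0.24 for Six4, -2.95 to -2.39 for Myf5, -2.79 to -1.58 for Myod1, -4.23 to -3.13 for Myog and -3.35 to -1.78 for Mymk. Of these ratios, that of Pax7 alone lost its direction, without proximal region 1, which held both counts.

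With each region left out in a refit at held dispersions, added after the data were seen, Myog kept its direction in 10 of 10 fits (-4.78 to -3.88) and its call in 4. The adjustment covered the genes read back only, so the lost calls depend on that set too. Lbx1, with 3 counts, ranged from -0.40 to 0.38 and changed sign.

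No paired analysis was possible because the regions read back carry no barcode number. At the distal depth, the interval of the distal share still held the depth share for Pax7, Lbx1, Met and Six4.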
